A study of Rattus norvegicus with 6 samples.

Results

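Chemokines, interleukins and their receptors were followed in primary rat oligodendrocyte progenitor cells, the dividing glial cells that give rise to myelin-forming oligodendrocytes, after exposure to the clotting protein fibrinogen. The set was chosen by gene symbol: names of the Ccl, Cxcl, Cx3cl, Ccr, Cxcr, Cx3cr, Ackr and Il series, ligands and receptors alike. The pattern matched 114 symbols, of which Cxcl12, Cxcr4, Ackr3 and Il6st were left out by name and Il13ra2 had no value on any array. This left 109 genes of the 13949 measured: 31 chemokine ligands, 16 chemokine receptors, 28 interleukin receptors and a group of 34 interleukins with their binding proteins and antagonists. Measured values played no part in the pattern, but the set was singled out with earlier results of these arrays known.

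The series, whose title concerns fibrinogen, BMP signaling and remyelination, addresses how gene expression in these progenitors differs with fibrinogen. The cells came from rat pups of postnatal day 1 to 2 and recovered for 2 days in proliferation medium with N2, B27, NT3 and PDGF, which both groups shared. The 3 fibrinogen samples were exposed for 12 h and the 3 control samples were not; the labels give no strain, fibrinogen dose, sex or number of pups per culture. Amplified RNA from each sample was hybridised to 1 Affymetrix array. Whether the 3 samples of a group are separate cultures is not stated, so every p-value rests on sample-to-sample spread that could be purely technical.

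Chemokines are small secreted or membrane-tethered proteins that guide migrating cells through G protein-coupled receptors. Interleukins act through cytokine receptors: the interleukin 1 family signals through receptors with a Toll/interleukin 1 domain towards NF-kappaB, and most other interleukins through JAK kinases and STAT factors. In the brain, microglia and astrocytes are the best known sources of both, and oligodendrocyte progenitors carry receptors for several of them.

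The stretches of DNA upstream of 4 genes are shown because the first 3 belong to the only members that passed the test, and the last to Il6, a classical inflammatory cytokine whose level did not pass. Each is the 250 bases before an annotated transcription start in RefSeq (rat build GRCr8), 5′ to 3′ on the gene's strand, with motif matches in capitals.
Il1r1: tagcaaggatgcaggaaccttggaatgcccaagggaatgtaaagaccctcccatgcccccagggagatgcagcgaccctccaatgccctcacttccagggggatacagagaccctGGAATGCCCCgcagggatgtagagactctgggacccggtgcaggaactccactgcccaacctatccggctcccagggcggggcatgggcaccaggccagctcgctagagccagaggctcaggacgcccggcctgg
Il18: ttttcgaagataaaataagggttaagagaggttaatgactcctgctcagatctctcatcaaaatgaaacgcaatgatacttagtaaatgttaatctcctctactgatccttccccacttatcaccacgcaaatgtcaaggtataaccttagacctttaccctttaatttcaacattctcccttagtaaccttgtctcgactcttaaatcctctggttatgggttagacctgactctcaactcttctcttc
Cxcl14: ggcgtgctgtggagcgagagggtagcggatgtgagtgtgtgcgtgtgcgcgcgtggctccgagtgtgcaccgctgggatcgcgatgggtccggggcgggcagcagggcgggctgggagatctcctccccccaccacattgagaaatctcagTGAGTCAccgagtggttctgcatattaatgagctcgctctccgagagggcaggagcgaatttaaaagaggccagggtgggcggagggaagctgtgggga
Il6: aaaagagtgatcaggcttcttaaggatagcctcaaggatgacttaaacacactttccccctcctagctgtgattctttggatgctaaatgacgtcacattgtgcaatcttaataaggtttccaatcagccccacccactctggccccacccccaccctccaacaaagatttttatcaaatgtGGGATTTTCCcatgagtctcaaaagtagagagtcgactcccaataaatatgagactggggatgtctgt
The Il1r1 window is chr9:50034133-50034382 on the plus strand and lies inside the annotated span of the gene, so it belongs to one of several starts. The capitals there mark a match to the NF-kappaB motif on the opposite strand, 135 bases before the start. The Il18 window, chr8:59801822-59802071 on the plus strand, held none of the 5 motifs searched. The Cxcl14 window, chr17:8322900-8323149 on the plus strand, held an AP-1 match, TGAGTCA, 99 bases before the start. The Il6 window, chr4:5894576-5894825 on the minus strand, held an NF-kappaB match 68 bases before the start. GC content was 63.6% for Il1r1, 38.4% for Il18, 63.2% for Cxcl14 and 44.4% for Il6.

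The motifs were searched on both strands: AP-1 as TGANTCA, STAT as TTCNNNGAA, a GC-rich Smad motif as GGCGCC, the TATA box as TATAAA, and NF-kappaB by its usual consensus. RefSeq windows were found for 85 of the 109 genes, 88 windows in all, and Ccl2 had none. The NF-kappaB motif was in 16 of the 88 windows (18.2%) and in 6.33% of all 33469 windows, and the AP-1 motif in 11 (12.5%) against 6.34%. The TATA box was in 20 (22.7%) against 12.9%, the STAT motif in 9 (10.2%) against 7.67%, and the Smad motif in 4 (4.55%) against 8.69%. These shares describe letters in a window and were not set against the expression values.

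Of the 109 genes, 3 (2.75%) passed the test for a difference after 12 h, against 3.1% of all genes. Il1r1, the signaling receptor for interleukin 1, rose 1.57-fold, Il18, a cytokine of the interleukin 1 family, rose 1.41-fold, and Cxcl14, a chemokine made in many resting tissues, rose 1.32-fold. No member fell. Classical inflammatory products did not pass the test: Il1b, close to background, differed by 0.03 ± 0.12 (SE) on the log2 scale, Il6, whose signal was under the background limit, by -0.02 ± 0.10, Cxcl10 by 0.00 with a 95% interval from -0.30 to 0.30, and Ccl2 by 0.81 ± 0.25 with widely spread fibrinogen samples.

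The test was limma on the deposited log2 levels, with Benjamini-Hochberg adjustment over all 13949 genes and a threshold of 0.05. The 3 members that rose are 2.75% of the 109, while 3.1% of all genes changed in either direction, 1.81% higher and 1.29% lower. Before adjustment, 10 members (9.17%) were higher with p under 0.05, against 8.12% of all genes, and 3 members (2.75%) were lower, against 7.46%. The fibrinogen samples all lay above the controls for 8 members (7.34%, against 10.7% of all genes) and all below for 6 (5.5%, against 10.6%). Whether these shares differ from those of all genes was not tested. The median difference was 0.02 over the 109 genes, with a range from -0.43 to 0.81, and -0.0033 over all genes.

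**Figure D1:**
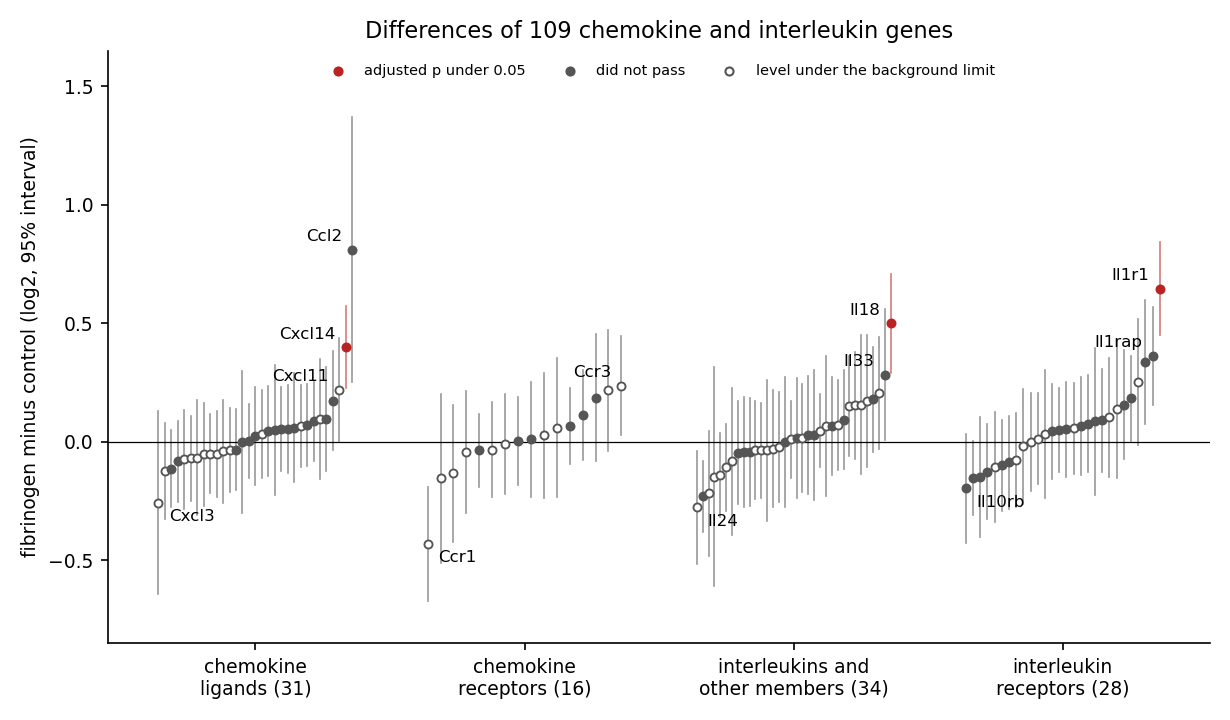
Difference between fibrinogen and control means (log2) of the 109 genes, ordered by size within 4 role groups; lines are 95% intervals from limma, red marks adjusted p under 0.05, and open points have a mean level under the background limit of 5.22. The only red points are Cxcl14, Il18 and Il1r1, and Ccl2 has the widest interval among the high values.

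Many of these probe sets were dim. A yardstick for background was taken from 115 olfactory and vomeronasal receptor genes (named Olr, Vom1r or Vom2r), which were taken as silent in these cells: the 95th percentile of their mean log2 levels was 5.22. Of the 109 members, 54 (49.5%) lay above it, against 76.9% of all genes. By role, 17 of 31 chemokine ligands, 6 of 16 chemokine receptors, 18 of 28 interleukin receptors and 13 of 34 interleukins and other members were above it. With a wider receptor list of 956 genes that adds those named Or, the limit was 5.51 and 45 members lay above it. Position relative to the limit is a description of the signal and not a test for the transcript. Levels are log2 values of single probe sets, and how brightly probe sets respond differs, so differences within a gene are compared below and not levels between genes.

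Among the members above the limit, 51 did not pass. The 95% interval of the difference lay within a 1.5-fold change in either direction for 49 of them, the exceptions being Ccl2 and Il13ra1, and only the interval of Ccl2 reached beyond 2-fold. For the 55 members at or under the limit, a difference near 0 does not bound a change in the transcript. Ccr1, Cxcl3 and Il10, all under the limit, also had intervals beyond 1.5-fold. Over all genes, 13088 of 13949 had an interval within 1.5-fold.

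**Figure D2:**
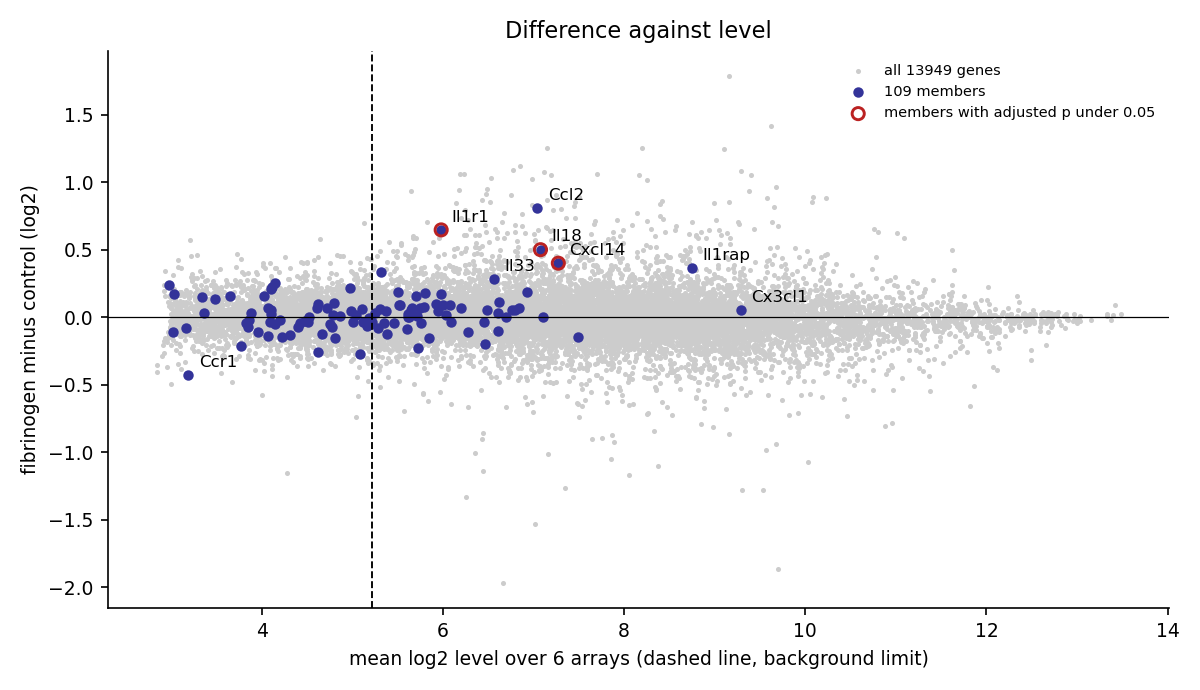
Difference between fibrinogen and control (log2) against mean log2 level over the 6 arrays for all 13949 genes (grey) and the 109 members (blue); red rings mark members with adjusted p under 0.05, and the dashed line is the limit of 5.22. The 3 members that rose lie right of the limit, while 55 members, Ccr1 among them, lie at or left of it.

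Among the chemokine ligands, Cxcl14 was the only one of 31 that passed, where 3.1% of all genes did. Its log2 level was 7.09, 7.04 and 7.09 on control arrays 1 to 3 and 7.56, 7.5 and 7.36 on fibrinogen arrays 1 to 3. Every fibrinogen sample lay above every control, and the controls were tightly grouped. The mean rose from 7.07 ± 0.03 (SD, n = 3) to 7.47 ± 0.10 (SD, n = 3), a difference of 0.40 ± 0.08 (SE) with a 95% interval from 0.23 to 0.57 (limma adjusted p = 0.0295). The call was lost without any one array other than fibrinogen 3 (adjusted p from 0.0521 to 0.134), although the difference stayed between 0.36 and 0.46.

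Ccl2, which draws monocytes through Ccr2, gave the largest difference of the 109 genes but did not pass. Its level was 6.71, 6.77 and 6.43 in the controls and 6.97, 8.09 and 7.28 with fibrinogen. The groups did not overlap, but fibrinogen 2 stood well above the other fibrinogen samples. The means were 6.64 ± 0.18 and 7.45 ± 0.58 (SD, n = 3 each), a difference of 0.81 ± 0.25 (SE; 95% interval 0.25 to 1.37; limma adjusted p = 0.141). Without fibrinogen 2 the difference was 0.49 with an adjusted p of 0.110, and over all single arrays left out it ranged from 0.49 to 1.05. On the same array all genes together deviated from the group mean with an SD of 0.146, against 0.114 and 0.110 on the other fibrinogen arrays and at most 0.0939 on the controls; the part of this wider spread in the Ccl2 values was not tested.

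Ccl2 lies in a row of adjacent genes on chromosome 10 with Ccl7, Ccl11 and Ccl12, other chemokines that attract monocytes or eosinophils. All 3 averaged under the limit (5.16, 4.72 and 4.15), and their differences of -0.07, 0.07 and -0.05 did not pass. Closely related chemokines of this kind can share probe sequence, so their probe sets may not be fully separate.

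Cx3cl1 (fractalkine) is a membrane-tethered chemokine of neural cells whose receptor, Cx3cr1, is carried by microglia. The Cx3cl1 level was 9.22, 9.27 and 9.31 in the controls and 9.47, 9.02 and 9.46 with fibrinogen. The fibrinogen samples lay on both sides of the controls, fibrinogen 2 being the low one. The difference was 0.05 ± 0.12 (SE; 95% interval -0.22 to 0.32; limma adjusted p = 0.900). Without fibrinogen 2 it was 0.20 (adjusted p = 0.157), and without fibrinogen 1 or 3 it was -0.03 and -0.02.

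The Cxcl1 level was 5.93, 6.11 and 6.05 in the controls and 6.15, 6.10 and 6.10 with fibrinogen, overlapping groups that differed by 0.09 ± 0.07 (adjusted p = 0.652). Cxcl1 is known to act on oligodendrocyte progenitors through Cxcr2, and the level of Cxcr2 averaged 3.83, under the limit, with a difference of -0.04 ± 0.11. Ccl5, which attracts T cells and monocytes, was at 6.76, 6.76 and 6.68 against 6.81, 6.88 and 6.67, a difference of 0.05 (adjusted p = 0.816). The groups overlapped for both ligands.

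Interferon-induced and neutrophil-attracting chemokines gave no call. Cxcl10, a product of interferon responses, was at 5.56, 5.54 and 5.74 in the controls and 5.37, 5.56 and 5.91 with fibrinogen, with fibrinogen samples at both ends. Cxcl11, which shares its receptor Cxcr3 with Cxcl10, was under the limit, at 4.13, 3.87 and 3.99 against 4.14, 4.14 and 4.37. Its groups did not overlap, but by only a narrow margin, and the difference was 0.22 ± 0.10 (adjusted p = 0.319). Cxcl3, a ligand of Cxcr2, was at 4.70, 4.67 and 4.89 against 4.07, 4.81 and 4.61, also under the limit, with fibrinogen 1 the low sample and a difference of -0.26 ± 0.17 (adjusted p = 0.535). Without fibrinogen 1 the Cxcl3 difference was -0.04, and without fibrinogen 2 it was -0.41. The macrophage chemokine Ccl3 averaged 4.76 with a difference of -0.05, and Cxcl2 averaged 4.40 with a difference of -0.07.

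The other ligands above the limit were Ccl4, Ccl9, Ccl17, Ccl19, Ccl20, Ccl21, Ccl22, Ccl24, Ccl27, Cxcl16 and Cxcl17. Their differences ran from -0.11 for Ccl17, a ligand of Ccr4, to 0.17 for Ccl20, the ligand of Ccr6. The median over all 31 ligands was 0.02.

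None of the 16 chemokine receptors in the set passed, against 3.1% of all genes, and their median difference was 0.0067. Cxcr4 and Ackr3, chemokine receptors left out of the set by name, did pass and are given below. The lowest difference of all 109 genes belonged to Ccr1, a receptor for Ccl3 and Ccl5 on myeloid cells, at 3.60, 3.28 and 3.33 in the controls and 2.82, 3.05 and 3.05 with fibrinogen. The groups did not overlap, but all 6 values were far under the limit of 5.22, while the median of the receptor genes taken as silent was 3.72. The difference was -0.43 ± 0.11 (SE; 95% interval -0.67 to -0.19; limma adjusted p = 0.0741).

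Ccr3, the eotaxin receptor, was likewise under the limit, at 3.02, 2.82 and 2.72 against 3.00, 3.15 and 3.12, overlapping groups with a difference of 0.24 (adjusted p = 0.259). Ccr6, the receptor for Ccl20, differed by 0.22 (adjusted p = 0.408). Cx3cr1 was at 5.63, 5.57 and 5.92 in the controls and 5.61, 5.84 and 5.70 with fibrinogen, fully overlapping, with a difference of 0.01 (adjusted p = 0.982). Ccr2, the receptor for Ccl2, averaged 4.10, under the limit, with a difference of 0.03.

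Of the receptors above the limit, Ccr10, which binds Ccl27 and Ccl28, was at 7.01, 7.16 and 7.13 against 7.07, 7.02 and 7.22, a difference of 0.0033 (adjusted p = 0.990). Cxcr3 averaged 6.09 with a difference of -0.04. The others were Ccr7, the lymph node homing receptor, at 0.11, the scavenging receptor Ackr2 at 0.19, and Ccr1l1 at 0.07. With Cx3cr1 these are the 6 receptors above the limit.

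**Figure D3:**
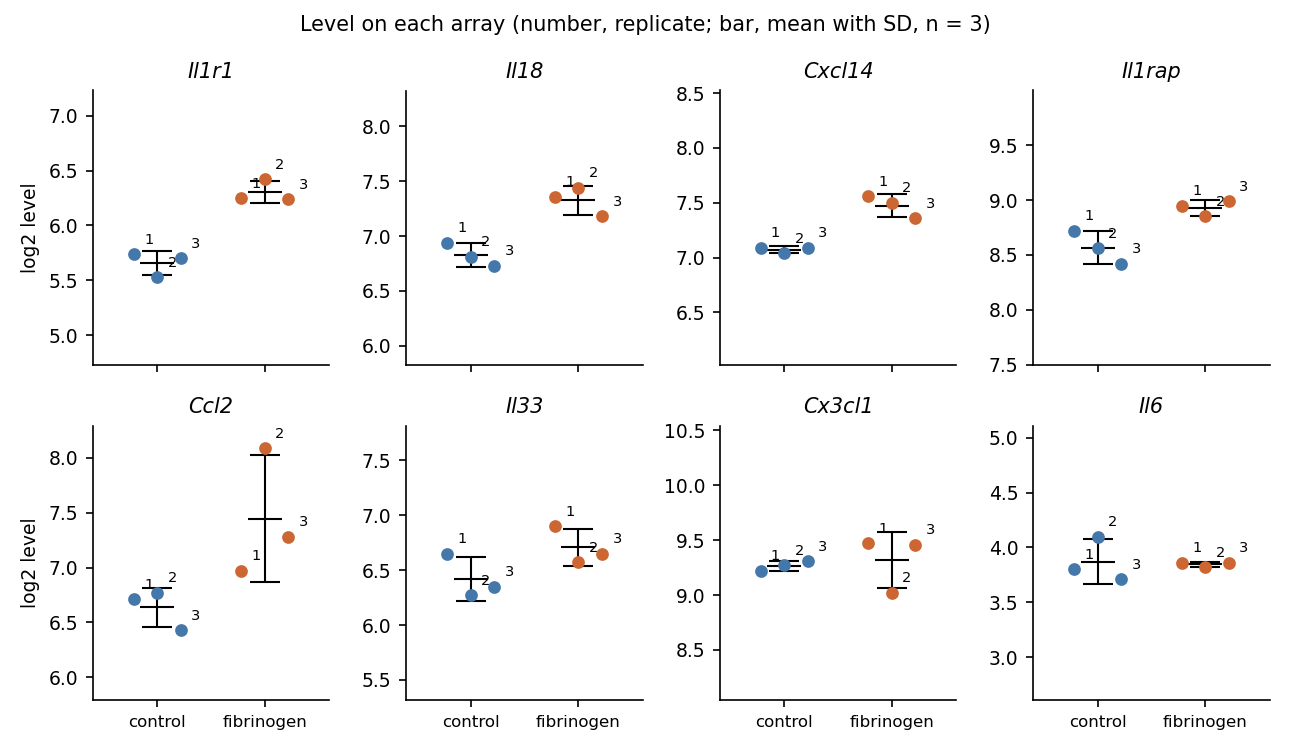
Log2 level of 8 members on each of the 6 arrays (points numbered by replicate) with the group mean and SD (n = 3); every panel spans the same log2 range. Il1r1, Il18, Cxcl14, Il1rap and Ccl2 show no overlap between groups, fibrinogen 2 is the highest point for Ccl2 and the lowest for Cx3cl1, and the Il6 groups overlap.

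Of the 18 measured members of the interleukin 1 family 2 rose, Il1r1 and Il18, while 1.81% of all genes were called higher. Its receptors are built of a ligand-binding chain, such as Il1r1, and the accessory chain Il1rap, which interleukin 1, interleukin 33 and interleukin 36 receptors share. Il1r1 was at 5.74, 5.53 and 5.70 in the controls and 6.25, 6.42 and 6.24 with fibrinogen. The lowest fibrinogen sample was above the highest control by more than either group's range. The mean rose from 5.66 ± 0.11 to 6.30 ± 0.10 (SD, n = 3 each), a difference of 0.65 ± 0.09 (SE; 95% interval 0.45 to 0.84; limma adjusted p = 0.00597). It passed in every alternative tried, with a difference from 0.58 to 0.69 and an adjusted p from 0.0160 to 0.0323 when single arrays were left out.

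Il1rap was at 8.72, 8.56 and 8.42 in the controls and 8.95, 8.85 and 8.99 with fibrinogen, groups that did not overlap. The means were 8.57 ± 0.15 and 8.93 ± 0.07 (SD, n = 3 each), and the difference of 0.36 ± 0.09 (SE; 95% interval 0.16 to 0.57) missed the threshold (limma adjusted p = 0.0761). It passed when dim genes were dropped at the 30th percentile of level (0.0478), when a robust variance trend was used (0.0483) and with array weights (0.0343). Dropping genes under the wider limit of 5.51 also gave a pass (0.0484). It did not pass when genes under the limit of 5.22 were dropped (0.0519), with centred arrays (0.0732) or with averaged probe sets (0.0755). Nor did it pass without any single array (0.0745 to 0.246).

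The remaining receptors of this family gave no call. The decoy receptor Il1r2 averaged 5.71 with a difference of 0.16 (adjusted p = 0.520), and Il1rapl1, a synaptic relative, averaged 5.53 with 0.09. The interleukin 36 receptor Il1rl2 averaged 4.15 with 0.25 (adjusted p = 0.349), the interleukin 33 receptor Il1rl1 4.2 with -0.02, and the interleukin 18 receptor Il18r1 4.11 with 0.06, all under the limit. Of these 7 receptors, 4 were above the limit, 6 had a positive difference and 1 passed, and the median difference was 0.16. Il1r1, Il1rl2, Il1rl1 and Il18r1 are neighbours on chromosome 9, and Il1r1 alone of the 4 passed.

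Among the ligands and binding proteins of the family, Il18, a cytokine made as an inactive precursor that caspase 1 cleaves, was at 6.94, 6.81 and 6.73 in the controls and 7.36, 7.44 and 7.18 with fibrinogen. All fibrinogen samples lay above all controls. The mean rose from 6.83 ± 0.11 to 7.33 ± 0.13 (SD, n = 3 each), a difference of 0.50 ± 0.09 (SE; 95% interval 0.29 to 0.71; limma adjusted p = 0.0251). The call was lost without any one array other than fibrinogen 3 (adjusted p from 0.0504 to 0.115), with differences from 0.44 to 0.57. Its soluble inhibitor Il18bp averaged 6.61 with a difference of 0.03.

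Il33, a nuclear alarmin that glia can release, was at 6.65, 6.27 and 6.35 in the controls and 6.90, 6.57 and 6.65 with fibrinogen. Control 1 reached the level of fibrinogen 3 and lay above fibrinogen 2, so the groups overlapped, and the difference was 0.28 ± 0.12 (adjusted p = 0.305). Il1b was at 5.39, 5.27 and 5.05 against 5.05, 5.31 and 5.44, fully overlapping around the background limit (adjusted p = 0.945). Il1a averaged 3.16 with a difference of -0.08, and the receptor antagonist Il1rn 3.96 with -0.11, both under the limit. Of the 11 ligands and binding proteins, 4 were above the limit and 1 passed, with a median difference of 0.03.

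**Figure D4:**
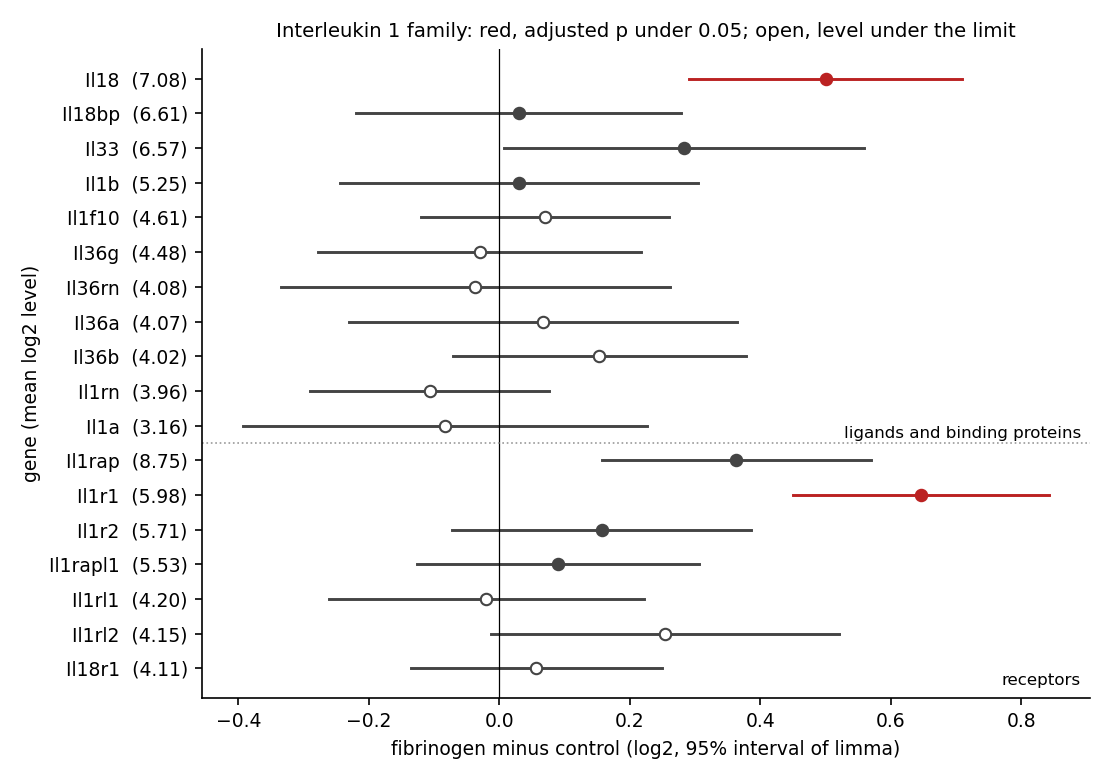
Difference between fibrinogen and control (log2, with the 95% interval of limma) for the 11 ligands and binding proteins (above the dotted line) and 7 receptors (below it) of the interleukin 1 family, with each mean log2 level in parentheses; red marks adjusted p under 0.05 and open points lie under the limit of 5.22. Il18 at 0.50 and Il1r1 at 0.65 are the only red points, and Il1rap at 0.36 and Il33 at 0.28 have intervals above 0 but did not pass.

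Outside the interleukin 1 family no interleukin or interleukin receptor passed. In the interleukin 6 family, Il6 was at 3.80, 4.10 and 3.71 in the controls and 3.86, 3.82 and 3.86 with fibrinogen, all well under the limit. The difference was -0.02 ± 0.10 with a 95% interval from -0.26 to 0.21 (adjusted p = 0.951). The receptors Il6r and Il11ra1, which bind interleukin 6 and interleukin 11, averaged 5.51 and 6.48, above the limit, with differences of 0.09 ± 0.14 and 0.05.

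Receptors for interleukin 4 and interleukin 13 share the chains Il4r and Il13ra1. Il13ra1 was at 5.0, 5.17 and 5.26 in the controls and 5.72, 5.39 and 5.33 with fibrinogen, close to the limit. The groups did not overlap, fibrinogen 1 was the high sample, and the difference of 0.34 ± 0.12 did not pass (adjusted p = 0.195). Il4r averaged 6.84 with a difference of 0.07. A further probe set that pairs Il13ra1 with a pseudogene was not used, and the 2 sequences may share signal.

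Il3ra, the ligand-binding chain for interleukin 3, was at 6.86, 6.76 and 6.90 against 6.99, 6.95 and 7.13, again without overlap, with a difference of 0.18 ± 0.08 (adjusted p = 0.305). Its ligand Il3 averaged 3.03, under the limit, with a difference of 0.17.

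No member of the interleukin 10 and 12 families passed. Il10rb, a chain shared by receptors for interleukin 10 and interleukin 22, was at 6.48, 6.62 and 6.59 in the controls and 6.41, 6.16 and 6.53 with fibrinogen. Only control 1 lay below a fibrinogen sample, and the difference was -0.20 ± 0.10 (adjusted p = 0.408). Il12rb2, the signaling chain for interleukin 12, was at 7.62, 7.62 and 7.47 against 7.29, 7.67 and 7.30, overlapping, with -0.15 ± 0.11 (adjusted p = 0.594). Its partner Il12rb1 was at 5.89, 5.96 and 5.93 against 5.72, 5.83 and 5.77, without overlap, with -0.15 (adjusted p = 0.327). Il10, an anti-inflammatory cytokine, was under the limit at 4.10, 4.18 and 4.62 against 3.79, 4.59 and 4.08, with a difference of -0.15 ± 0.20.

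Il9, a T cell cytokine, was at 5.82, 5.81 and 5.89 in the controls and 5.60, 5.61 and 5.62 with fibrinogen. The groups did not overlap and were each tight, yet the difference of -0.23 ± 0.07 did not pass (adjusted p = 0.119). Il24, of the interleukin 10 family, was at 5.09, 5.16 and 5.43 against 4.87, 4.90 and 5.08, with a mean under the limit. Its groups were just short of overlapping, with a difference of -0.28 ± 0.10 (adjusted p = 0.241).

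The interleukin 17 receptors Il17ra, Il17rb and Il17re were all above the limit, with differences of 0.05, -0.10 and -0.09. The remaining receptors above the limit were Il9r, Il21r and Il27ra, with differences of 0.08, -0.13 and 0.04. The remaining interleukins above it were Il11, Il12a, Il12b, Il13, Il16, Il17b, Il21 and Il23a, with differences from -0.05 for Il12a to 0.18 for Il21. Il34, a ligand of the microglial receptor Csf1r, averaged 5.04, under the limit, with a difference of 0.02. The other members, all under the limit, include the T cell cytokines Il2, Il4 and Il5, at -0.04, -0.04 and -0.22.

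The 4 genes left out of the set by name belong to the same pathways. Ackr3, a scavenging receptor for Cxcl12, fell by 1.28 on the log2 scale (SE 0.10, adjusted p = 0.000594), Cxcr4, its signaling counterpart, rose by 0.85 ± 0.10 (adjusted p = 0.00314), Cxcl12 differed by -0.04 (adjusted p = 0.838) and Il6st, the shared chain of the interleukin 6 family, by 0.22 ± 0.07 (adjusted p = 0.150).

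Genes related to these pathways were read from 5 lists, of which some share a gene such as Csf1. The lists hold signaling and target genes, other cytokines and receptors, and chemokine-related genes. None of 19 measured NF-kappaB feedback and target genes passed in either direction, with a median difference of 0.06, and 3 were higher before adjustment with p under 0.05, where 8.12% of all genes were. Among them Nfkbia, the inhibitor that NF-kappaB induces, was at 8.26, 8.43 and 8.34 in the controls and 8.78, 8.47 and 8.75 with fibrinogen. These groups did not overlap, but fibrinogen 2 sat next to the controls, and the difference was 0.32 ± 0.10 (adjusted p = 0.140). Lcn2, with a mean under the limit, had the largest difference of the list, 0.44 ± 0.15 (adjusted p = 0.185). Of the 19 genes, 15 were above the limit, and the listed genes Tnfaip3, Tnfaip2, Rel, Relb and Traf1 were not measured. None of 20 genes of interleukin 1 and Toll-like receptor signaling passed, none had an unadjusted p under 0.05 (all genes 8.12% higher and 7.46% lower), and the median was -0.0033. Of these 20, 13 were above the limit, and the listed genes Irak2, Tab3, Tlr1, Tlr5, Tlr9 and Nlrp3 were not measured. The adaptor Myd88 differed by 0.04 there and the ligase Traf6 by -0.09. Against these 0 calls, limma called 3.1% of all genes.

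Of 22 JAK-STAT and SOCS genes, 1 rose and none fell, with a median of 0.06; among all genes 1.81% were called higher and 1.29% lower. It was Socs2, a feedback inhibitor of cytokine and growth hormone signaling, at 8.62, 8.79 and 8.79 in the controls and 9.51, 9.58 and 9.67 with fibrinogen, far from overlapping (difference 0.85 ± 0.08, adjusted p = 0.00149). Socs3, the feedback inhibitor of the interleukin 6 family, was at 8.11, 8.14 and 8.0 against 8.77, 7.95 and 8.59. Fibrinogen 2 was the lowest of all 6 samples and the other fibrinogen samples lay above the controls. The Socs3 difference was 0.35 ± 0.18 (adjusted p = 0.408). Before adjustment, 5 of the 22 genes were higher and 1 lower with limma p under 0.05, against 8.12% and 7.46% of all genes. All fibrinogen samples lay above all controls for 6 and below for 1, against 10.7% and 10.6%. Whether these shares differ was not tested.

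Of 20 other cytokine receptors and ligands, 2 rose and none fell, with a median of 0.05, beside the same shares over all genes (1.81% and 1.29%). Cntfr, the ligand-binding chain for ciliary neurotrophic factor, was at 8.90, 8.95 and 8.90 in the controls and 9.55, 9.66 and 9.62 with fibrinogen (difference 0.69 ± 0.07, adjusted p = 0.00163). Lifr, a signaling chain that works with Il6st and Cntfr, was at 7.15, 7.13 and 7.12 against 7.60, 7.89 and 7.56 (difference 0.55 ± 0.09, adjusted p = 0.0193). Neither overlapped between groups. The Lifr call was lost without any one control (adjusted p = 0.0743, 0.0846 and 0.0905 without controls 1, 2 and 3). Before adjustment, 5 of the 20 genes were higher and 1 lower with limma p under 0.05, against 8.12% and 7.46% of all genes. All fibrinogen samples lay above all controls for 4 and below for 1, against 10.7% and 10.6%. Whether these shares differ was not tested.

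Of 15 chemokine-related genes outside the naming pattern, 2 rose and none fell, with a median of 0.02, again beside 1.81% and 1.29% of all genes. Both encode membrane proteins of the chemokine-like CMTM family. Before adjustment, 3 of the 15 genes were higher and none lower with limma p under 0.05, against 8.12% and 7.46% of all genes. Cmtm5, known from oligodendrocytes and myelin, was at 10.41, 10.47 and 10.57 against 11.08, 11.15 and 11.12 (difference 0.63 ± 0.07, adjusted p = 0.00314). Cmtm3 was at 6.95, 7.04 and 7.09 against 7.49, 7.38 and 7.56 (difference 0.45 ± 0.08, adjusted p = 0.0193), a call lost without any one array other than fibrinogen 2 (adjusted p from 0.0652 to 0.0873).

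The makeup of the cultures was read from marker lists. All 10 measured progenitor markers were above the limit, and 4 of them fell, against 1.29% of all genes. These were Pdgfra by 0.40, Cspg4 by 0.35, Gpr17 by 0.66 and Neu4 by 0.65 on the log2 scale. The other 6 did not pass: Vcan at -0.11, Olig1 at -0.07, Sox10 at -0.05, Ptprz1 at -0.03, Sox6 at 0.03 and Cacng4 at 0.19. The summed level of all 10 (log2) ran from 14.36 to 14.42 in the controls and from 14.17 to 14.24 with fibrinogen. Of 10 measured astrocyte markers, all above the limit, 4 rose (Gfap by 1.24, Cd44 by 1.12, Ndrg2 by 0.96 and Slc1a2 by 0.65), against 1.81% of all genes. The other 6 did not pass: S100b at 0.46, Fgfr3 at 0.30, Slc1a3 at 0.23, Aldoc at 0.21, Aqp4 at 0.01 and Gja1 at -0.04. The sum of all 10 ran from 12.00 to 12.05 in the controls and from 12.45 to 12.60 with fibrinogen. In bulk samples, more cells of a type and more RNA per cell cannot be told apart. The markers that passed separate the groups as Il1r1, Il18 and Cxcl14 do, the astrocyte markers in the same direction and the progenitor markers in the opposite one. The part of cell makeup in the results for those 3 members was not tested.

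Of 24 microglia and macrophage markers, 11 were above the limit, against 76.9% of all genes, and none passed. All fibrinogen samples lay below all controls for 3 of the 24 and above for none, against 10.6% and 10.7% of all genes. The sum ran from 9.98 to 10 in the controls and from 9.93 to 9.99 with fibrinogen. Of these markers, Ptprc, Itgam, Aif1, Laptm5, C1qa and Tyrobp averaged 3.76, 4.02, 4.74, 5.08, 5.17 and 5.215, all under the limit of 5.22. Cd68, Tmem119, P2ry12, C1qb, Trem2 and Csf1r, further markers of the list, averaged 7.01, 6.39, 5.86, 5.81, 5.37 and 5.31, above it. Trem2 and Csf1r lay under the wider limit. No endothelial (7 measured), fibroblast and pericyte (8), lymphocyte (13) or neutrophil and mast cell (9) marker passed, beside the same share of all genes (3.1%). Their summed levels overlapped between the groups for all but the endothelial list, which ran from 7.94 to 7.97 in the controls and from 7.98 to 7.99 with fibrinogen.

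How far the calls rest on single arrays differs between the genes. Without control 1, 2 or 3 or fibrinogen 1 or 2, 1 member was higher, namely Il1r1; without fibrinogen 3, 3 were. The number of all genes called was 432 with every array and 151 to 436 without single arrays. With 3 samples a group, an exact two-sided permutation test of 1 gene cannot go below p = 0.1.

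**Figure D5:**
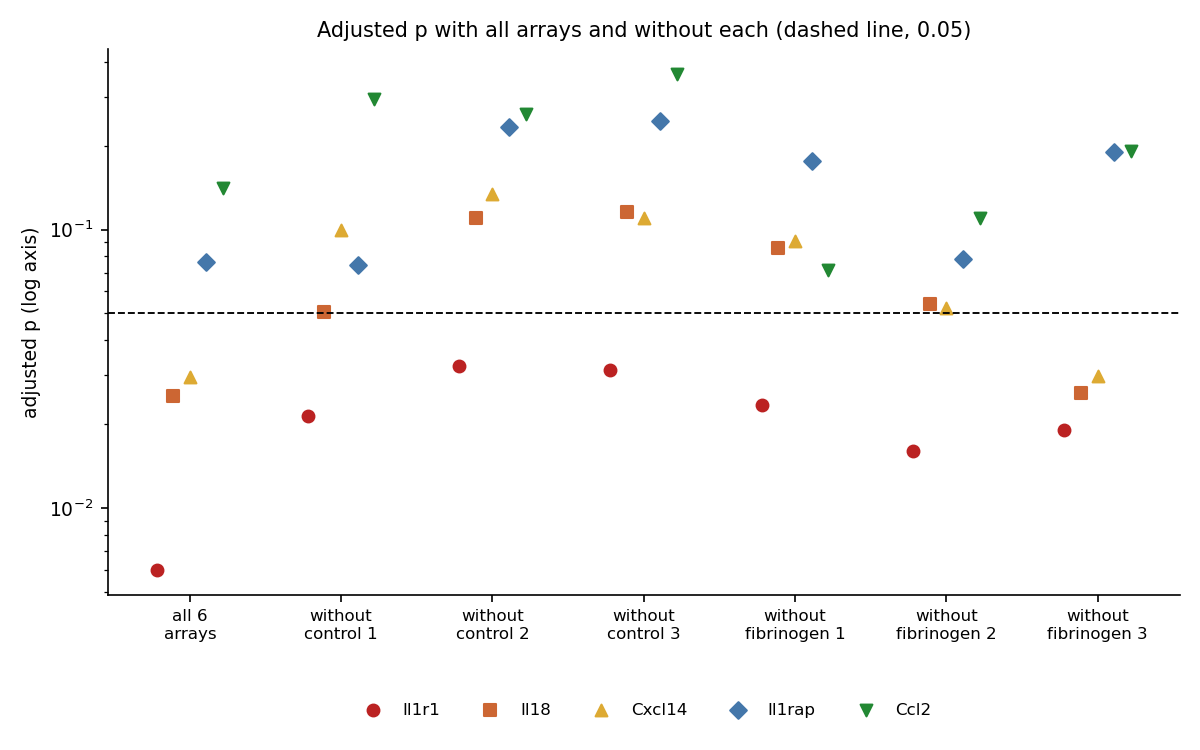
Adjusted p (limma, log axis) of 5 members with all 6 arrays and without each array in turn; the dashed line is 0.05. Il1r1 stays under the line in every case, Il18 and Cxcl14 lie under it with all arrays and without fibrinogen 3, and Il1rap and Ccl2 stay above it throughout.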

How the data were processed

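The values are the authors' deposited log2 expression levels, 1 per probe set and array; the scale was taken from the values and RMA from the submitters' processing notes, and the genome build behind the array annotation is not given in the sources used here. Of 26312 probe sets, 1206 were blank on every array. Of the 25106 with values, 14700 carry 1 gene symbol, 275 several and 10131 none; those with 1 symbol were used, and for a gene with several the brightest. All 109 members matched RefSeq (GRCr8) by Entrez ID. Differences were tested with limma 3.58.1 (lmFit and eBayes) in R 4.3.3, two-sided, with Benjamini-Hochberg adjustment over 13949 genes at 0.05. The script was tested on simulated data.

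Named genes are the members that passed, those above the background limit, the 3 with the largest absolute difference in each role, and a list of well-known cytokines and receptors; pathway genes that passed were named, and Nfkbia, Myd88, Traf6, Socs3 and the other genes given besides were picked after their values were seen. Members and lists were chosen with earlier results of these data known. The receptor pattern for background matched 115 genes, since the annotation names most such receptors Or; the wider list was added after seeing the data. Alternatives left out each array, centred the arrays, filtered dim genes, averaged probe sets, and used a variance trend, array weights or the replicate number as a block. The number of arrays limits the precision. No label gives a batch or date.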

Additional observations from a re-analysis of the deposited data

How the results depend on the processing

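Il1r1 passed under every alternative, and 0 members passed as lower under any of them, against 3 lower members at an unadjusted p under 0.05. Array weights moved the number of genes called from 432 to 659, with 4 members higher. Leaving out single arrays gave 151 to 436 genes, 1 to 3 higher members and 3 to 7 related pathway genes, against 5 with all arrays. The labels do not say whether the replicate numbers pair the samples. Correlations of same-numbered deviations were 0.0278, 0.0217 and 0.0109, and those of the other pairs ran from -0.0213 to -0.00158, values too small to settle it. With the replicate block in limma, 315 genes and 2 members were called, Cxcl14 being lost (adjusted p = 0.0603) and Il1rap not passing (adjusted p = 0.109). Filters on dim genes gave 571 to 596 genes and 3 or 4 higher members, Il1rap being the addition. Over 949 pairs of a named gene and a setting, 19 calls were lost, 4 were gained (all Il1rap) and no called difference reversed; 45 differences that passed in neither setting changed sign. Signal limits what can be said of the 55 members at or under the background limit, and of the further members under the wider limit.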
